A study of Mus musculus with 6 samples.

Results

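The cytosolic ribosomal proteins were taken as the protein-coding genes whose symbol is Rpl or Rps followed by a number, together with Rplp0, Rplp1, Rplp2 and Rpsa. Kinases named Rps6k and symbols with -ps, which mark pseudogenes (300 in the table), were left out. The rule used symbols and annotation only and found 86 genes among the 55385 genes counted, of which 52 carry a large-subunit symbol (Rpl) and 34 a small-subunit symbol (Rps). Rps19bp1, a binding partner of Rps19, and Rpl7l1, a paralog that works in ribosome assembly, match the symbols without being standard ribosome subunits, and both were kept. The genes lie on 19 chromosomes.

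Poly(A) RNA was sequenced from the liver of male C57BL/6 mice that had undergone either a sham operation or vertical sleeve gastrectomy (VSG), the weight-loss surgery in which the stomach is cut down to a narrow tube. The comparison asks which liver transcripts differ after the operation on an unchanged obesogenic diet. There were 3 sham libraries, numbered 1 to 3, and 3 VSG libraries, numbered 4 to 6, each labelled as a separate liver. The sources name no engineered allele and no drug. All mice were 6 to 8 weeks old at the start, ate a high-fat diet for 10 weeks before the operation, and stayed on it for 12 weeks afterwards. Since every animal ate this diet, no lean baseline enters the comparison. The libraries held between 22804397 and 24191778 gene counts. The hepatocyte markers were high in each library, with summed levels of 43009 to 96513 CPM (read counts scaled to the size of each library, here with edgeR's TMM factors).

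Ribosomes translate mRNA in all cells. Their small subunit reads the message, and their large subunit joins the amino acids. Most of their proteins are needed in equal number, and in the liver, which makes the bulk of the plasma proteins, ribosome number follows feeding and growth signals. The mRNAs of these proteins typically begin with a C followed by a run of pyrimidines, the terminal oligopyrimidine (TOP) tract. Through this tract the kinase complex mTORC1 and the RNA-binding protein Larp1 control how well they are translated, which an mRNA count does not measure. Ribosomal protein genes also have very many processed pseudogene copies in the genome, so a short read from such an mRNA may match several places.

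The sequences at the starts of the members that passed the test below are shown because the starts carry the feature the family shares. Each window runs from 5 bases before a RefSeq transcript start to 25 bases from it, read 5′ to 3′ on the gene's strand in GRCm38.p6, and capitals mark the run of C and T that was found, which had to begin with C and span at least 6 bases.
Rps10, chr17:27635220-27635249, minus strand: cgCCCCTTCCTTTCCagcctccgcctcgga
Rps12, chr10:23787185-23787214, minus strand: cggccaccgccggCCTTTTCCCCTgccgcc
Rps18, chr17:33955641-33955670, minus strand: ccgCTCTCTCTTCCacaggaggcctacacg
Rps24, chr14:24490673-24490702, plus strand: ggtCCTTCCTTgcgcgttgatatgattggt
Rpl12, chr2:32961707-32961736, plus strand: gatccgtCTTTTCggctttcggctcggagg
Rpl13a, chr7:45128721-45128750, minus strand: gacaagaCCTCCTCCTTTCCCaggcggctg
Rpl23, chr11:97782415-97782444, minus strand: gtcacgtggctgagtgggcggggCCTCCCg
Rpl27a, chr7:109519190-109519219, plus strand: gCTCCTCCCTTTTCCCTTTCTgccaccgcc
Rpl10, chrX:74270811-74270840, plus strand, no run found: tggaagataggccgcctatataaggcgtga
In these 9 genes the run covered between 6 and 20 bases where present, and it started within 4 bases of the RefSeq start in Rps10, Rps18, Rps24, Rpl12, Rpl13a and Rpl27a. In Rpl23 it began at base 19, counted from 1 at the start. RefSeq gave a second start for Rps24, which is not shown. Of the 66 members with a promoter entry, 50 (75.8%) had such a run between 15 bases before the start and the end of the first 35 bases, against 36.9% of the 27025 genes with an entry. On the other strand of the same windows the shares were 22.7% for the members and 42.8% for all genes. A run of this kind is a match of letters and was not tested as a working TOP tract.

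Levels of the members differed by several orders of magnitude. As FPKM (CPM divided by the deposited exon length of the gene in kilobases), means over the 6 libraries ran from 0.00619 for Rpl10l to 158 for Rpl4, with a median of 4.38. Among the highest were Rpl4, which reaches into the peptide exit tunnel, Rplp1 of the large-subunit stalk (132 FPKM), Rpl8, which lies beside the peptidyl transferase centre (122 FPKM), Rps15 of the small-subunit head (103 FPKM) and the paralog Rps27l (69.6 FPKM). For 30 of the 86 members no library reached 100 counts. Rps6, the substrate of the S6 kinases and a component of every small subunit, held between 3 and 15 counts per library. Rpl19, Rpl23a, Rpl24, Rpl38, Rps16 and Rps29, which are also standard subunits, held at most 16 counts in any library and did not pass the filter on low counts.

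These levels moved with how much of each mRNA is found nowhere else among annotated transcripts. The share of 100-base stretches of a member's principal transcript that occur in no other annotated gene, on either strand, ranged from 1.6% for Rps27 to 100%, with a median of 66.6%. Of the 86 members, 77 shared at least 1 such stretch with another gene. Across the 86 genes, which are not independent replicates, the log2 level correlated with this share with Pearson's r = 0.43 and Spearman's rho = 0.46. The 32 members with less than 50% of stretches unshared had a median of 1.97 FPKM, and the 54 others had a median of 8.43 FPKM. Whether reads with several matches were counted is not stated in the sources used here, so a level in FPKM says how many assigned reads a gene has and may be far from its mRNA amount. The 458 annotated pseudogenes that share a stretch with a member held 963 to 1216 counts per library in all, against 46071 to 56395 counts for the members.

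**Figure D1:**
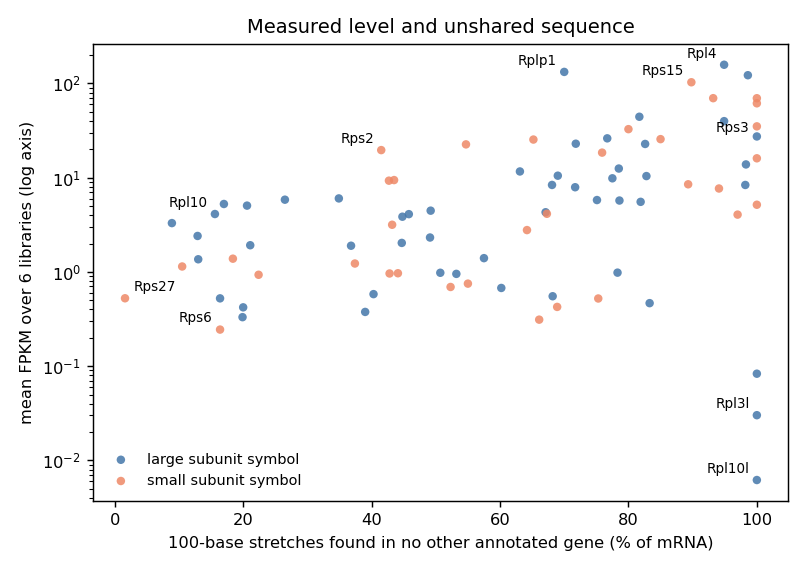
Mean FPKM over the 6 libraries (vertical log axis) against the share of 100-base stretches of the mRNA found in no other annotated gene (horizontal axis, %), 1 dot per member, coloured by subunit. The spread is wide at any share (r = 0.43), with Rps27 at 1.6%, Rpl4 highest at 158 FPKM, and Rpl3l and Rpl10l low at 100%.

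After VSG most ribosomal protein transcripts sat slightly above the sham level, and few passed the test singly. Of the 86 members, 76 passed the filter on low counts, and the other 10 were Rpl10l, Rpl19, Rpl23a, Rpl24, Rpl38, Rpl39l, Rpl3l, Rps16, Rps27rt and Rps29. Among the tested 76, the median log2 fold change (VSG over sham, edgeR) was 0.31, or 1.24-fold, with quartiles of 0.19 and 0.45, against a median of 0.03 over all 14454 genes tested. The fold change was above 0 for 71 of the 76 members and for 52.4% of all genes. In these bulk samples a change in the mix of cells and a change in RNA per cell cannot be told apart.

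With edgeR's quasi-likelihood test and Benjamini-Hochberg adjustment over all 14454 genes, 9 of the 76 members rose at an adjusted p under 0.05 and 0 fell (11.8% called, against 14.7% of all genes in either direction, 6.79% higher and 7.87% lower). The share of members called was thus near that of all genes. At an unadjusted p under 0.05, 28 members were higher and 1 was lower, where 16.9% and 17.0% of all genes were. DESeq2 called 15 higher and 1 lower (all genes 10.5% and 12.3%), and limma-voom called 7 higher and 0 lower (all genes 12.9% in either direction). Every VSG library lay above every sham library in 39 of the 76 members and below in 1, against 19.8% of all genes in each direction. By subunit, 5 of 45 tested Rpl genes and 4 of 31 tested Rps genes were called, with median log2 fold changes of 0.26 and 0.38.

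The calls changed when a library was left out. Without sham 1, edgeR called 2 members (1 higher, 1 lower), and without VSG 5 it called 5 (4 higher, 1 lower), where the called shares of all genes were 8.19% and 18.4%. Without sham 2, sham 3, VSG 4 or VSG 6 it called 0, while 21, 16, 19 and 33 members were higher and 1 was lower at an unadjusted p under 0.05. Over all genes the called share in these 4 fits was 5.34%, 1.07%, 7.32% and 1.42%, and 13.8%, 11.1%, 13.8% and 13.1% were higher at an unadjusted p under 0.05. The median log2 fold change of the tested members stayed between 0.25 and 0.36 in the 6 fits that left out a library.

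Seen library by library in CPM with TMM factors, the shift was present in each VSG mouse and differed in size among them. The median over tested members of the log2 CPM relative to the sham mean was -0.0317, 0.0204 and -0.0107 in sham 1 to 3. It was 0.423, 0.304 and 0.182 in VSG 4 to 6. In the sham libraries 30, 42 and 36 of the 76 members lay above their own sham mean, and in the VSG libraries 72, 72 and 62 did. VSG 6 was the closest to the sham libraries on both measures, and neither measure overlapped between the groups. Both measures are taken against the sham mean, so the sham values lie near it by construction.

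**Figure D2:**
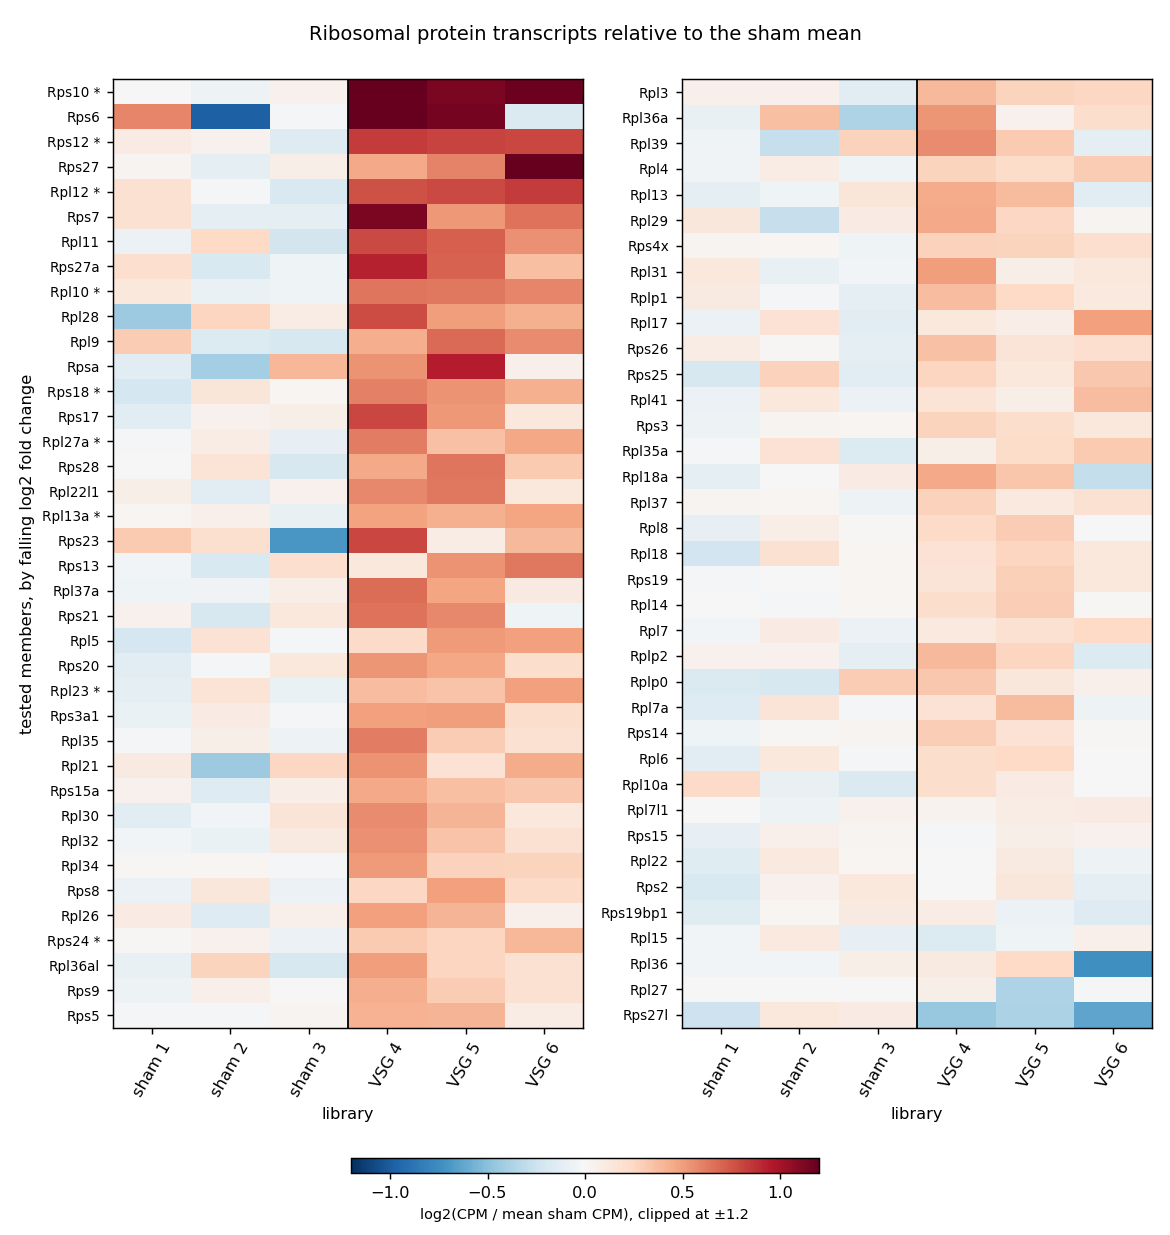
Log2 of each tested member's CPM over its mean in the sham libraries, for the 3 sham and 3 VSG libraries (columns), with the tested members (1 is not shown) ordered by falling fold change in 2 blocks. An asterisk marks an adjusted p under 0.05 (9 members), red is above and blue below the sham mean, and Rps27l closes the list.

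The size of the family's shift, and whether the groups overlapped, depended on the scaling. The TMM factors were 1.15, 0.924 and 1.09 in sham 1 to 3 and 0.97, 0.996 and 0.897 in VSG 4 to 6. As a share of all gene counts, without TMM factors, the members held 0.226%, 0.194% and 0.223% in sham 1 to 3 and 0.239%, 0.240% and 0.203% in VSG 4 to 6, so the groups overlapped (0.214% ± 0.0174 against 0.227% ± 0.0212, SD, n = 3 each). Their summed CPM with TMM factors was 1972, 2105 and 2053 for the sham mice and 2468, 2411 and 2262 for the VSG mice, which did not overlap. Scaling by total counts moved the median log2 fold change of all genes by -0.14, to -0.11, and that of the members to 0.17. With total counts 1 member (Rps10) was called higher and 1 (Rps27l) lower, against 13.8% of all genes, and the calls over all genes split into 486 higher and 1512 lower in place of 981 and 1137.

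Rps10, a protein of the small-subunit head whose gene is mutated in some patients with Diamond-Blackfan anaemia, had the largest fold change of the 76. Its level was 0.960, 0.914 and 0.988 CPM in sham 1 to 3 and 2.49, 2.09 and 2.15 CPM in VSG 4 to 6, from 20 to 26 counts per sham library and 45 to 55 per VSG library. All VSG libraries lay above all sham libraries, with a log2 fold change of 1.23 ± 0.219 (SE, edgeR adjusted p = 0.0197). Of its exon bases, 20.6% also lie under exons of RPS10-NUDT3, a read-through gene on the same strand, and 8.18% under the antisense gene Gm15420. Which gene the reads there were assigned to is not known here. The strand setting of the counting, which is not stated, bears only on the antisense part.

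Rps12, also a small-subunit head protein, measured 2.18, 2.10 and 1.82 CPM in sham 1 to 3 against 3.62, 3.55 and 3.53 CPM in VSG 4 to 6. Its groups were far apart, at a log2 fold change of 0.81 ± 0.179 (SE, adjusted p = 0.0325). Only 18.4% of its 100-base stretches were unshared, and 20 other genes carried at least 1 of them. Rpl12, which forms the base of the stalk that binds the elongation factors, measured 2.84, 2.47 and 2.20 CPM in sham 1 to 3 and 4.25, 4.32 and 4.48 CPM in VSG 4 to 6. These groups did not overlap (log2 fold change 0.80 ± 0.178, SE, adjusted p = 0.0331). All 3 of these genes had at most 101 counts in a library.

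Rpl10, an X-linked protein that joins the large subunit late in its assembly, measured 7.24, 6.30 and 6.42 CPM after sham operation and 10.4, 10.3 and 10.0 CPM after VSG. The VSG libraries lay close together and above the sham libraries (log2 fold change 0.62 ± 0.122, SE, adjusted p = 0.0246). Its unshared part was 15.6% of stretches, and 10 other genes held a shared stretch. Rps18, which helps to bridge the subunits, measured 16.2, 20.7 and 19.0 CPM in sham 1 to 3 and 28.4, 27.1 and 25.1 CPM in VSG 4 to 6. Its groups did not overlap either (log2 fold change 0.53 ± 0.120, SE, adjusted p = 0.0341).

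The other 4 called members changed by less and had adjusted p-values between 0.0450 and 0.0489. Rpl27a, a large-subunit protein, went from 9.94 ± 0.672 to 13.9 ± 1.30 CPM (SD, n = 3 each, log2 fold change 0.48). Rpl13a, which also acts outside the ribosome in interferon-treated myeloid cells as a repressor of translation, went from 6.85 ± 0.351 to 9.43 ± 0.204 CPM (log2 fold change 0.46), and 35.4% of its exon bases lie under other annotated genes on its strand. The better-counted pair was Rpl23, a large-subunit protein that also binds Mdm2, and Rps24, another Diamond-Blackfan anaemia gene. Rpl23 measured 37.0, 44.7 and 37.6 CPM after sham operation and 51.5, 50.6 and 56.0 CPM after VSG (log2 fold change 0.41 ± 0.106, SE). Rps24 measured 47.8, 48.8 and 45.1 CPM after sham operation and 58.8, 56.4 and 62.3 CPM after VSG (log2 fold change 0.33 ± 0.0854, SE). In both genes every VSG library was above every sham library. Of the 17 alternative fits, Rps10 and Rpl10 passed in 12, Rps12, Rps18 and Rpl27a in 10, Rpl12 and Rpl13a in 9, Rpl23 in 6 and Rps24 in 4.

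**Figure D3:**
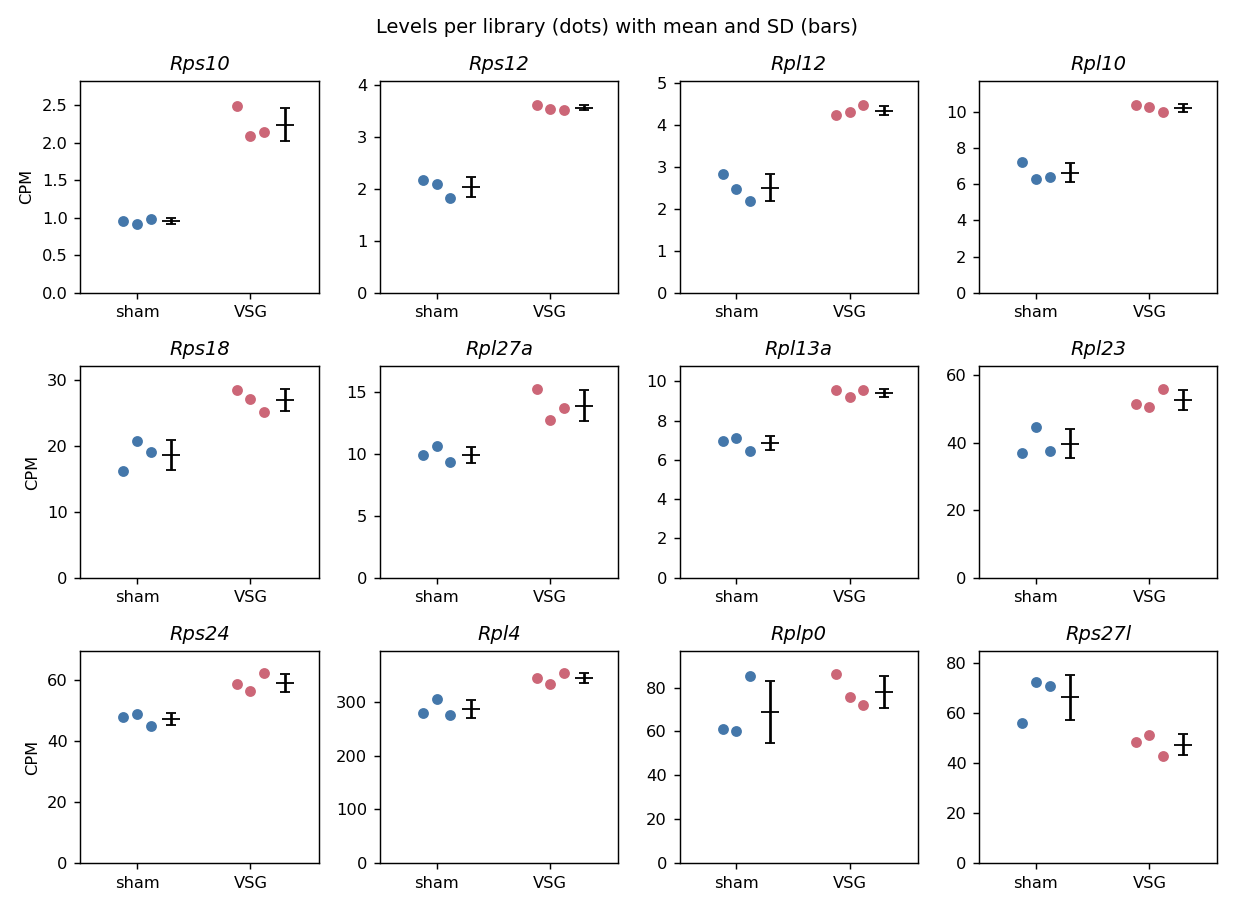
CPM (vertical axes from 0) in each sham and VSG library (dots) with the mean and SD of 3 libraries (bars) for the 9 called members and for Rpl4, Rplp0 and Rps27l. The dots of the called members do not overlap between groups, those of Rplp0 do, and those of Rps27l run the other way.

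Among the most abundant members the fold changes varied. Rpl4 measured 280, 306 and 277 CPM in sham 1 to 3 and 346, 335 and 355 CPM in VSG 4 to 6, a separation of the groups at a log2 fold change of 0.26 ± 0.114 (SE) that did not pass the test (adjusted p = 0.156). DESeq2 called it (adjusted p = 0.0358). Rpl8 averaged 155 ± 9.56 and 177 ± 18.8 CPM (SD, adjusted p = 0.314), and Rps15 averaged 63.9 ± 3.59 and 65.6 ± 2.04 CPM (adjusted p = 0.776). Rplp1 (log2 fold change 0.24) and Rps27l (-0.48) are described with the stalk proteins and the paralogs.

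Across the 76 tested members the log2 fold change was smaller where the level was higher (r = -0.54, rho = -0.53 against log2 FPKM) and where more of the sequence was unshared (r = -0.42, rho = -0.40). These correlations are across genes that share the same 6 libraries, and the level and the unshared share themselves move together. The median log2 fold change was 0.40 for the 28 tested members with under 50% unshared stretches (27 above 0, 4 called) and 0.25 for the other 48 (44 above 0, 5 called). The part of shared sequence in the fold changes was not tested. Within the better-identified 48 the direction was therefore the same as in the whole family, at a smaller size.

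The stalk proteins Rplp0, Rplp1 and Rplp2 recruit the translation factors, and Rplp0 is commonly used as a reference gene in qPCR, including in this study. Rplp0 measured 61.1, 60.3 and 85.3 CPM in sham 1 to 3 and 86.2, 75.5 and 72.1 CPM in VSG 4 to 6. Sham 3 lay among the VSG libraries, and the other sham libraries lay below them. Its log2 fold change was 0.18 ± 0.161 (SE, adjusted p = 0.464), and over the 17 alternatives it ranged from 0.03 to 0.35 without passing the test. Its SE leaves room both for no change and for a shift as large as the family's median. Rplp1 measured 60.5 ± 4.34 and 71.7 ± 6.24 CPM (SD, n = 3 each), and its groups did not overlap (log2 fold change 0.24 ± 0.105, SE, adjusted p = 0.154). Rplp2 averaged 20.2 ± 1.25 and 22.9 ± 4.39 CPM and overlapped (adjusted p = 0.448).

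Several members have known roles beyond peptide synthesis. Rpl5 and Rpl11 bind the smallest rRNA of the large subunit and, when free of ribosomes, hold the p53 ligase Mdm2. Rpl5 measured 11.1 ± 1.42 and 14.8 ± 1.55 CPM (SD). Rpl11 measured 1.14, 1.42 and 1.03 CPM in sham 1 to 3 and 2.08, 1.97 and 1.76 CPM in VSG 4 to 6. Neither gene overlapped between the groups. Their log2 fold changes were 0.42 ± 0.143 and 0.70 ± 0.238 (SE), and their adjusted p-values of 0.0930 and 0.0924 missed the threshold. Of the exon bases of Rpl5, 24.3% lie opposite exons of Fam69a. Rps3, which sits at the mRNA entry and also takes part in DNA repair, measured 146 ± 4.78 and 168 ± 8.94 CPM with no overlap (adjusted p = 0.196). Rpsa, the ribosomal form of the laminin receptor precursor, and Rps6 overlapped between groups (adjusted p = 0.284 and 0.292). They reached no more than 49 and 15 counts per library, and their log2 fold changes had SEs of 0.340 and 0.541.

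Rps27l, a paralog of Rps27 that p53 induces, was the member with the lowest fold change. It measured 55.8, 72.2 and 70.7 CPM in sham 1 to 3 and 48.2, 51.0 and 42.8 CPM in VSG 4 to 6. It was the only 1 of the 76 in which every VSG library lay below every sham library. The log2 fold change was -0.48 ± 0.131 (SE) and just missed the threshold (unadjusted p = 0.00791, adjusted p = 0.0519 by edgeR). It passed in 7 of the 17 alternatives, among them DESeq2 (adjusted p = 0.0143), total counts (0.0316), the fit without sham 1 (0.0390) and the fit without VSG 5 (0.0490), with adjusted p-values from 0.0143 to 0.174 over all 17. All of its 100-base stretches were unshared, and its level of 897 to 1860 counts per library was among the well-measured ones. RefSeq gave it a start at base 66946086 of chromosome 9, where the run of pyrimidines lies upstream, from 12 bases before the start, and a further start with no run.
Rps27l, chr9:66946081-66946110, plus strand: ccgccgcctctatcccggaagttgctgagg
Cdkn1a, another p53 target, measured 27.1, 41.9 and 30.7 CPM after sham operation and 22.6, 8.04 and 13.2 CPM after VSG, which did not overlap (log2 fold change -1.19, adjusted p = 0.0745). Mdm2, a p53 target as well, had a log2 fold change of -0.05 (adjusted p = 0.806). Both genes were picked for this comparison after their values were seen.

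Paralog pairs, in which a second gene can take the place of a ribosomal protein, were compared as the paralog's share of the pair's summed FPKM. Rpl22l1 made up 13.8%, 10.5% and 12.3% of Rpl22 and Rpl22l1 in sham 1 to 3 and 17.0%, 16.6% and 13.6% in VSG 4 to 6. The lowest VSG value lay below the highest sham value. Rpl22l1 itself had a log2 fold change of 0.46 ± 0.169 (SE, adjusted p = 0.108) and Rpl22 of 0.02 ± 0.107 (adjusted p = 0.923). Rps27l made up 99.5% ± 0.0866 and 98.8% ± 0.475 of its pair (SD, n = 3), although with 1.6% unshared stretches Rps27 may be undercounted. The shares of Rpl36al (65.1% ± 2.07 and 65.6% ± 2.09) and Rpl7l1 (38.5% ± 2.43 and 36.8% ± 0.502) overlapped between the groups. Rpl39l, Rpl3l and Rpl10l, paralogs known from testis or muscle, had at most 4, 3 and 1 counts in any library, against a floor of 3 counts.
Rps4l, which the annotation lists as a pseudogene and which is therefore no member, made up 16.9%, 23.4% and 30.2% of its sum with Rps4x after sham operation and 15%, 14.9% and 15.3% after VSG. The sham libraries spread widely and all lay above the VSG libraries, with adjusted p = 0.177 for Rps4l and 0.0815 for Rps4x.

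Among the members with a mean of at least 1 FPKM, those of the 10 highest fold changes that did not pass the test were Rpl22l1, described above, and Rps27a (log2 fold change 0.68, adjusted p = 0.0941), which is made as a fusion with ubiquitin, Rpl9 (0.56, 0.101), Rps28 (0.48, 0.107) and Rpl37a (0.44, 0.127). In each of these genes the VSG libraries lay above the sham libraries. At the other end, Rpl36 (-0.06), Rpl15 (-0.04), Rps19bp1 (-0.04), Rps2 (0.01), Rpl22, Rps15 (0.04), Rpl7l1 (0.08) and Rpl10a (0.10) all overlapped between the groups on the log2 scale, with adjusted p-values from 0.522 to 0.959. With SEs of 0.0797 to 0.327, changes of the size of the family's median could not be told from 0 for the less precise of them, such as Rpl36. Rpl15 and Rps2 were among the better-counted ones, at 19.9 ± 1.53 and 35.7 ± 3.91 CPM in the sham libraries. Values near 0 thus occurred among well-counted members too.

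The balance of the subunits was compared as the ratio of summed FPKM of Rpl over Rps genes. It was 1.35, 1.31 and 1.28 in sham 1 to 3 against 1.43, 1.40 and 1.45 in VSG 4 to 6, without overlap. The ratio of medians moved the same way, from 0.854 ± 0.0412 to 1.06 ± 0.0252 (SD, n = 3). The ratio of summed counts, however, was 1.35 ± 0.0191 and 1.38 ± 0.0375 and overlapped, so the result depended on how genes were weighted. Much of the difference in summed FPKM came with Rps27l, and without it the ratio was 1.55 ± 0.0191 for sham and 1.58 ± 0.0224 for VSG (SD, n = 3 each), with the highest sham and the lowest VSG library both at 1.56. By single genes the order was the reverse, with the higher median log2 fold change in the small subunit (0.38 against 0.26). The ratios are given as a description, with no test.

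Mitochondrial ribosomal proteins, which build the separate ribosome that translates mitochondrial mRNAs, went the other way. Of 77 tested, 10 fell and 0 rose by edgeR, with a median log2 fold change of -0.28 and 72 values below 0. At an unadjusted p under 0.05 by edgeR, 34 were lower and 0 higher, where 17.0% and 16.9% of all genes were. DESeq2 called 15 lower and 0 higher (all genes 12.3% and 10.5%). In 39 of the 77 every VSG library lay below every sham library, against 19.8% of all genes. Mrps18a went from 25.3 ± 1.89 to 15.2 ± 0.323 CPM (SD, log2 fold change -0.73, adjusted p = 0.0103), Mrpl10 from 43.5 ± 3.01 to 30.9 ± 0.696 CPM (-0.50, 0.0200) and Mrpl42 from 29.3 ± 1.03 to 21.5 ± 0.601 CPM (-0.45, 0.0224). Over all genes 7.87% fell. Without sham 1, 2 or 3 the number called was 5, 1 and 0, and without VSG 4, 5 or 6 it was 2, 13 and 0, where 8.19%, 5.34%, 1.07%, 7.32%, 18.4% and 1.42% of all genes were called in either direction. In the fits without sham 3 and without VSG 6, 17 and 20 of the list were lower at an unadjusted p under 0.05, as were 12.1% and 12.9% of all genes. The share of counts on genes of the mitochondrial genome was 5.79%, 6.58% and 5.59% in sham 1 to 3 and 4.14%, 4.94% and 5.01% in VSG 4 to 6, without overlap, and the 10 highest genes of each library held 17% to 19.1% of counts in the sham and 18.1% to 23.7% in the VSG libraries. The part of either in these results was not tested. The medians of the cytosolic and the mitochondrial list kept opposite signs in all 17 alternatives, total counts included (0.17 and -0.41).

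**Figure D4:**
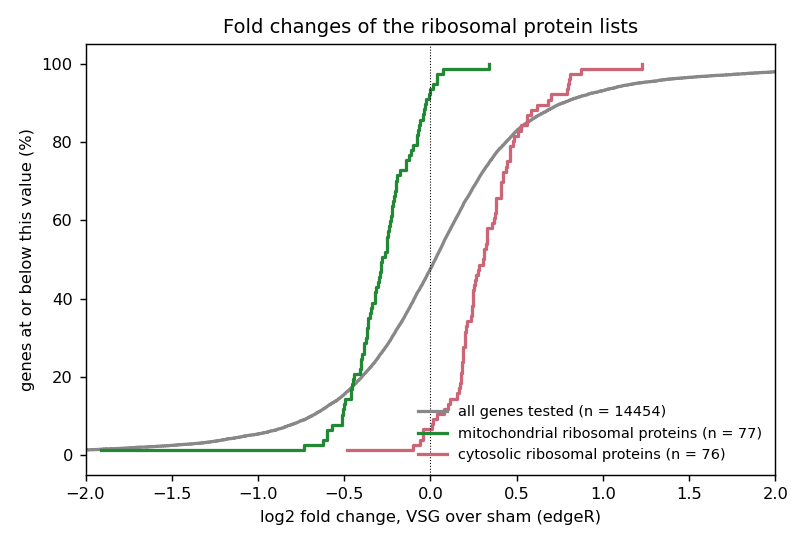
Cumulative share of genes (%, vertical axis) at or below each edgeR log2 fold change (horizontal axis, VSG over sham, drawn from -2 to 2) for 76 cytosolic and 77 mitochondrial ribosomal proteins and all 14454 genes tested. The cytosolic curve is shifted to the right (median 0.31) and the mitochondrial curve to the left (median -0.28) of the curve of all genes (0.03).

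The lists of the wider translation machinery differed from each other. Of 62 tested genes of ribosome biogenesis and RNA polymerase I, 7 rose and 2 fell (14.5% called, near the 14.7% of all genes, median log2 fold change 0.14). At an unadjusted p under 0.05, 17 of them were higher and 5 lower. Heatr1 of the small-subunit processome went from 24.2 ± 0.372 to 38.0 ± 2.73 CPM (SD, log2 fold change 0.65, adjusted p = 0.0114), and Mphosph10 (0.46, 0.0286) and Tsr1 (0.44, 0.0302) rose too, while Nhp2, a box H/ACA snoRNP protein, fell (-0.68, 0.0211). Of 39 initiation factors 0 were called by edgeR (4 higher and 1 lower at an unadjusted p under 0.05, and 2 higher by DESeq2), with a median of -0.03. Of 11 tested elongation factors only the selenocysteine factor Eefsec was called by edgeR, and it fell (-0.66, adjusted p = 0.0218). Of 19 other genes known for TOP mRNAs, Hnrnpa1 rose (0.68, 0.0269), and the list's median was 0.09, with 5 higher and 1 lower at an unadjusted p under 0.05. Among 22 regulators 1 was called by edgeR, Mdm4, the partner of Mdm2 (0.40, 0.0361), and 3 were higher and 5 lower at an unadjusted p under 0.05. DESeq2 called 2 regulators higher and 4 lower (all genes 10.5% and 12.3%). With total counts or the length offset, edgeR called 0 higher and 3 lower. Mtor (-0.39, 0.0816), Larp1 (0.37, 0.101) and Myc (-0.40, 0.384) did not pass in the main edgeR fit. Over the alternative fits their lowest adjusted p-values were 0.0436, 0.0524 and 0.0772. Fau and Rack1, ribosomal proteins whose symbols the rule misses, had log2 fold changes of -0.24 and 0.28 and did not pass (edgeR adjusted p = 0.615 and 0.177).

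Markers of other cell types differed between the groups in part. Over all genes 14.7% were called by edgeR, in either direction. All 10 neutrophil markers rose, and their summed level was 2.65 to 15 CPM in the sham and 134 to 1798 CPM in the VSG libraries, in the order VSG 4, VSG 6, VSG 5, with Ly6g at or under the floor of 3 counts in every sham library. Of 6 B and plasma cell markers 2 rose (Jchain and Ighm, summed level of the list 22.5 to 29.3 and 150 to 194 CPM), and of 7 macrophage markers 2 rose (Timd4 and Clec4f, 381 to 901 and 761 to 1925 CPM). All 6 and all 7 of these had log2 fold changes above 0 (medians 0.73 and 1.07). Of 7 stellate cell markers 2 fell (Colec11 and Reln, 576 to 738 and 262 to 476 CPM), and of 5 bile duct markers 1 rose (Sox9) while the other 4 had log2 fold changes below 0 (median of the list -0.76, 57.7 to 253 and 73.4 to 200 CPM). Of 7 hepatocyte markers 1 fell (Cyp3a11, 60193 to 96513 and 43009 to 68148 CPM), a share of 14.3% that was near that of all genes. None of 6 T and NK cell (6.13 to 7.13 and 6.58 to 12.5 CPM), 6 endothelial (252 to 309 and 252 to 314 CPM), 7 erythroid (133 to 197 and 185 to 288 CPM) and 6 proliferation markers (10.8 to 35.6 and 10.2 to 111 CPM) was called by edgeR, with 1, 0, 1 and 0 of them higher at an unadjusted p under 0.05. Over the alternative fits the highest adjusted p stayed under 0.05 for Jchain and Ighm (0.00919 and 0.0173). It was 0.0818 to 0.0937 for the neutrophil markers Retnlg, S100a8, S100a9 and Ltf. For Cyp3a11, Timd4, Clec4f, Colec11, Reln and Sox9 it was 0.0512 to 0.123. The part of these cell types in the ribosomal protein values was not tested.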

How the data were processed

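Poly(A) libraries from about 40 mg of liver, prepared with a strand-specific kit, were processed by the authors with FastQC 0.10.1, STAR 2.6.0 (mm10) and featureCounts (2.0.3 in the submitters' processing notes), and deposited as raw counts per gene with the summed exon length. The annotation release and the settings for strand and for reads with several matches are not given in the sources used here. Gene IDs were matched to GENCODE M21 (55144 of 55385 IDs, 54487 of them with the same version). edgeR 4.0.16 in R 4.3.3 (filterByExpr with a minimum count of 10, TMM, quasi-likelihood test, VSG against sham over the 6 libraries, no covariate) was the test, with Benjamini-Hochberg adjustment at 0.05. GC content was known for 99.9% of tested genes. Libraries of a group differed by more than sampling noise (chi-square per degree of freedom at least 27.5). The alternatives were DESeq2 1.42.0, limma 3.58.1 (voom, and log2(FPKM + 1) with a pseudocount of 1), other scalings and filters, a prior count of 2, lowess offsets for length and GC (span 0.3), and leaving out each library. The fits were tested on simulated counts of 14226 genes. Of genes changed by a log2 fold change of 1 in either direction, edgeR recovered 39.4%, limma-voom 37.4% and DESeq2 61.6%. False calls numbered 9, 6 and 47 in that order. Changes as small as the family's median of 0.31 were not simulated.

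The members and lists were chosen with earlier results of these data known. Named were the stalk proteins, Rpsa, Rps3, Rps6, Rpl5 and Rpl11, the paralog pairs, the 10 highest and 10 lowest fold changes at 1 FPKM or more, the 5 most abundant, all called members, and up to 4 called genes of each other list. Rps27l's comparison genes, low-count members, Mtor, Larp1, Myc, Fau and Rack1 were named after their values were seen. RefSeq promoter windows (GRCm38.p6) were found for 66 members. Protein sequences were not used here. Some genes that the rule names are not reported here. P-values weigh the difference between the groups against the spread of the libraries within a group.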

Additional observations from a re-analysis of the deposited data

How the results depend on the processing

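The count of called members (9) became 16 with DESeq2, 4 when genes with at least 1 count were kept, 2 with total counts and 0 to 5 when a library was left out. It was 5 when only members with at least 50% unshared stretches were counted, an alternative chosen after seeing the data. The other 9 alternatives left it between 7 and 11. Over all genes the called share of 14.7% became 22.8% with DESeq2, 8.38% with at least 1 count and 13.8% with total counts. Without a library it ran from 1.07% to 18.4%. Total counts moved the members' median log2 fold change from 0.31 to 0.17 and that of the mitochondrial list from -0.28 to -0.41. The 22 calls of the other translation lists, mitochondrial list included (9 higher, 13 lower, of 219) became 43 with DESeq2, 24 with total counts (1 higher, 23 lower) and 0 to 20 without a library, and the 10 mitochondrial calls among them became 15 with DESeq2 or total counts and 0 to 13 without a library. The difference in the large to small ratio (0.111) was 0.205 with medians, 0.0282 with counts, 0.0675 per principal transcript and 0.0344 without Rps27l, the last 2 also chosen after seeing the data. The cause of these changes was not tested, except that leaving out a library leaves fewer samples.

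Over 64 named genes and 17 alternatives, 892 of 1083 comparisons kept direction and side of the threshold, 160 lost the call, 9 gained it and 22 turned direction, all of them in genes without a call. With total counts the log2 fold change became -0.11 for Rpl22, -0.07 for Rpl7l1, -0.12 for Rps2, -0.10 for Rps15 and -0.05 for Rpl10a. With at least 1 count it was -0.02 for Rpl22 and Rps2. Rps2 was at -0.0011 with DESeq2 and -0.0015 with RLE factors. The offsets for length gave 0.01 for Rpl15 and 0.08 for Rps19bp1, and that for GC 0.01 for Rps19bp1. When a library was left out, the values ran from -0.06 to 0.08 for Rpl22, -0.27 to 0.18 for Rpl36, -0.10 to 0.02 for Rpl15, -0.12 to 0.01 for Rps19bp1, -0.08 to 0.07 for Rps2 and -0.01 to 0.06 for Rps15.

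No paired analysis was possible because the sham libraries are numbered 1 to 3 and the VSG libraries 4 to 6. Low counts limit what can be seen for the 30 members with under 100 counts in every library. With 3 libraries a group, the fits without sham 2, sham 3, VSG 4 or VSG 6, which had fewer samples, called 0 members.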
